A study of Mus musculus with 20 samples.

Results

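The 10 genes described here encode the enzymes that switch the pyruvate dehydrogenase complex off and on, the subunits on which they act, and the main lactate carriers of muscle. They were taken by name from the deposited count table: the kinases Pdk1, Pdk2, Pdk3 and Pdk4, the phosphatases Pdp1 and Pdp2, the E1 subunits Pdha1 and Pdhb, and the transporters Slc16a1 and Slc16a3. Each symbol stood on 1 row, so the genes were 10 of the 21844 rows, and all 10 were among the 14359 genes with enough counts to be tested.

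RNA was sequenced from mouse hindlimb muscle in 20 libraries, 5 in each of 4 groups. The genotype label of every library, controls included, is Cre+:iMSBmal1 fl/fl, which is a floxed allele of the clock gene Bmal1 together with Cre recombinase. The groups differ in treatment, labelled Vehicle or iMSBmal1KO, and in exercise, either none or a 6-week programme of daily treadmill running. The labels place collection 48 hours post, while the series design places it 47 hours after the final bout, and they name both gastrocnemius and tibialis anterior as the tissue. The promoter that drives Cre, the inducing agent, and the age, sex and number of the mice are not given in the sources used here. The comparisons ask how the knockout-labelled and vehicle groups differ in each exercise state, how trained and sedentary muscle differ within a treatment, and whether those training differences vary by treatment.

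Pyruvate made by glycolysis either enters mitochondria, where the pyruvate dehydrogenase complex turns it into acetyl-CoA, or is reduced to lactate in the cytosol. Pyruvate dehydrogenase kinases phosphorylate the E1 alpha subunit, encoded by Pdha1, and so inactivate the complex, and the pyruvate dehydrogenase phosphatases remove the phosphate. In muscle Pdk4 is known to rise during fasting and fat oxidation, which spares glucose. Slc16a1 encodes MCT1, the monocarboxylate carrier found mainly in oxidative fibres, where it takes up lactate, and Slc16a3 encodes MCT4, the carrier of glycolytic fibres that exports it.

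BMAL1 binds DNA with its partner CLOCK at E-box elements, so the promoters were searched for the canonical E-box. The RefSeq promoter table (build GRCm38.p6) held entries for 9 of the 10 genes, 11 promoters in all, and Pdp1 had none. The E-box CACGTG, which reads the same on both strands, was found within the 250 bases before the start of 3 genes, and 6.02% of the 32851 promoters in the table hold it. It begins 200 bases before the start in Slc16a1 (chr3:104638414-104638663, plus strand) and 219 bases before it in Pdp2 (chr8:104591222-104591471, plus strand). In Pdk2 (chr11:95041372-95041621, minus strand) it begins 126 bases before 1 of the 2 listed starts. The variant CACGTT, present in 3.85% of promoters on either strand, and the nuclear receptor half-site AGGTCA, present in 14.02%, were found in none of the 11. A match is a description of the letters and not evidence of binding. In sedentary and trained muscle the log2 changes were -0.12 and 0.34 for Pdk2 and 0.17 and 0.35 for Pdp2. None of these was called by edgeR with all samples. The 3 promoters with the element are shown 5′ to 3′ on the strand of the gene, with the E-box in capitals. They are shown because they include Slc16a1, whose level differed between the knockout-labelled and vehicle groups in both exercise states.
Slc16a1: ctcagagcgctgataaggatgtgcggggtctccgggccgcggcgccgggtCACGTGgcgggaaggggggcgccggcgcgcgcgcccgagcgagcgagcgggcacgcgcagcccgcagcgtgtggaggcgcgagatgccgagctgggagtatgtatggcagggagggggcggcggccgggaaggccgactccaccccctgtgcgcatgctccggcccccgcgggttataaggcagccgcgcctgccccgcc
Pdk2: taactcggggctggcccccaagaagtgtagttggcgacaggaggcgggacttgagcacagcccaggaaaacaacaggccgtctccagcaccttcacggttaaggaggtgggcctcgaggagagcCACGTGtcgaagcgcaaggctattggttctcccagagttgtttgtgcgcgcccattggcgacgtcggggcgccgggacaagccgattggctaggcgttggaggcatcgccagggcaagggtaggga
Pdp2: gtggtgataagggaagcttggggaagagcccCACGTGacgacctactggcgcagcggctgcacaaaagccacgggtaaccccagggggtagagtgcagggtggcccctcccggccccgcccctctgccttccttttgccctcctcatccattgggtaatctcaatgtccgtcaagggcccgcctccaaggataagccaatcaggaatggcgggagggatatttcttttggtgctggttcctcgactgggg

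The libraries held between 10610333 and 19153527 estimated counts. Within the group labelled knockout trained, libraries 1 and 4, and libraries 3 and 5, differed less at high counts than any other pair. The ratio of noise at high counts to noise at low counts was 1.28 and 0.857 in these pairs. The lowest ratio among the other pairs was 2.31. It was not shown that the libraries within these pairs differed by sampling noise alone. Each of these pairs was counted as 1 sample, so that group has n = 3 and 18 samples entered the fits. Vehicle-trained library 2 stood apart, where 3739 of 14359 genes lay over 2-fold from their group, against 33 to 525 in the other samples. Of the 10 genes, 8 lay outside the range of the other 4 vehicle-trained libraries in it, so for the knockout-labelled comparisons of these genes, values without it are given where leaving it out changed a call or a direction or moved a change by more than 1.5 times. Arntl, the table's name for the targeted gene Bmal1, was not lower under the knockout label, apart from a comparison with vehicle-trained library 2. Its level, in counts scaled to a common library size (CPM), was between 5.97 and 7.45 in the vehicle sedentary libraries, between 10.4 and 17.5 CPM in those labelled knockout sedentary, and between 8.94 and 15.7 CPM in the 3 samples labelled knockout trained. In vehicle-trained libraries it averaged 6.51 CPM without library 2, which alone had 142 CPM. With all samples its log2 changes were 0.91 (SE 0.74, edgeR adjusted p = 0.886) in sedentary and -1.57 (SE 0.87, edgeR adjusted p = 0.372) in trained muscle. Without library 2, Arntl rose by 0.92 on the log2 scale in sedentary muscle (edgeR adjusted p = 0.00115) and by 0.81 in trained muscle (edgeR adjusted p = 0.0148) in the knockout-labelled groups. Which exons the floxed allele loses is not given in the sources used here, so it is not known whether the gene count covers the deleted part. The directions below therefore rest on the labels. All 9 skeletal muscle markers (such as Acta1, Ckm and Myh4) were present in every group, with summed levels between 54541 and 92688 CPM. The lowest sum was that of vehicle-trained library 2.

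Lactate transport gave the clearest difference. Slc16a1 (MCT1, ENSMUSG00000032902) fell in the knockout-labelled groups of both exercise states. Its levels were 76.2, 88.8, 66.1, 65.2 and 75.9 CPM in the vehicle sedentary libraries. In those labelled knockout sedentary they were 29.2, 31.3, 33.5, 36.9 and 45.4 CPM. The highest of these was below the lowest vehicle value, so the groups did not overlap. The means were 74.5 ± 9.57 (SD, n = 5) and 35.3 ± 6.33 CPM (SD, n = 5), a log2 change of -1.08 (SE 0.24) or a 2.12-fold lower level, with an adjusted p of 0.0152 by edgeR's quasi-likelihood test with Benjamini-Hochberg adjustment over all tested genes.

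Among trained muscles the vehicle libraries had 50.0, 130.2, 77.5, 39.4 and 63.4 CPM of Slc16a1, library 2 being the highest. The libraries labelled knockout trained had 37.9, 33.8, 34.7, 32.6 and 31.0 CPM. These groups did not overlap either, although the lowest vehicle library stood only just above the highest knockout-labelled one. The log2 change was -1.10 (SE 0.28, edgeR adjusted p = 0.0391), from 72.1 ± 35.5 (SD, n = 5) to 34.0 ± 1.20 CPM (SD, n = 3). Without vehicle-trained library 2 the vehicle mean was 57.6 ± 16.5 CPM (SD, n = 4) and the change was smaller, -0.76 (SE 0.19), with an adjusted p of 0.0150 by edgeR. The knockout-labelled means of the sedentary and trained groups were close to each other, and the difference between the effects in the 2 states was -0.01 (SE 0.36, edgeR adjusted p = 0.994). Without library 2 this difference was 0.32 (SE 0.24, edgeR adjusted p = 0.648), with the opposite sign, and neither value shows that the effects are equal.

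The sedentary call was lost when the library labelled knockout sedentary 1 or 2 was left out, with edgeR adjusted p values of 0.0530 and 0.0505. The trained call was lost in 11 of 25 alternatives. In 10 of them 1 sample was left out (vehicle sedentary 1, 3 or 5, knockout-labelled sedentary 2, 3 or 4, vehicle-trained 3, or any of the 3 knockout-labelled trained samples), with edgeR adjusted p values from 0.0509 to 0.174. In the other only the 2 trained groups were fitted, with an edgeR adjusted p of 0.4345. No alternative changed the sign of Slc16a1 in either state, and its log2 change ranged from -1.19 to -1.01 in sedentary and from -1.24 to -0.76 in trained muscle.

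Slc16a3 (MCT4) lay lower in the knockout-labelled means but did not pass the test. In sedentary muscle the vehicle libraries had 389, 304, 288, 259.7 and 345 CPM and the knockout-labelled libraries had 223, 254, 216, 241 and 276 CPM. Only 1 vehicle library fell within the knockout-labelled range. The change was -0.40 (SE 0.27, edgeR adjusted p = 0.799). In trained muscle the vehicle libraries had 235, 74.5, 353, 356 and 323 CPM, with library 2 far below the rest. Those labelled knockout trained had 244, 229, 213, 233 and 242 CPM. That change was -0.22 (SE 0.31, edgeR adjusted p = 0.762), and without library 2 the changes were -0.39 (SE 0.12, edgeR adjusted p = 0.0614) and -0.45 (SE 0.15, edgeR adjusted p = 0.0639).

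Per length, the transporter transcripts split differently between groups. Of the summed RPKM of the carrier pair (CPM per kilobase of merged exon), Slc16a1 made up between 19.0% and 26.0% in the vehicle sedentary libraries. It made up between 12.9% and 16.5% in those labelled knockout sedentary, with no overlap. In those labelled knockout trained it was between 14.8% and 15.1%, and in vehicle-trained libraries between 11.7% and 20.9% apart from library 2, where it reached 67.7%. These shares were not tested. Slc16a3 was thus the more abundant carrier in every sample except vehicle-trained library 2.

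In bulk muscle, fewer cells of a type and less RNA per cell cannot be told apart. Markers of the slow fibres, in which MCT1 is known to be enriched (Myh7, Tnnt1, Tnni1, Tnnc1, Myl3 and Atp2a2), summed to between 860 and 1432 CPM in vehicle sedentary and between 497 and 1232 CPM in knockout-labelled sedentary libraries. Endothelial markers summed to between 148 and 200.3 CPM and between 171 and 201 CPM in these groups, and Schwann cell markers to between 70.7 and 153 CPM and between 70.3 and 106 CPM. All 3 ranges overlapped, and no marker was at 0 throughout a group. None of the 48 markers of 8 lists passed edgeR's test in sedentary muscle. There 1 had an unadjusted p under 0.05, DESeq2 called 0 and limma voom with sample weights called 2. Over all 14359 tested genes these 3 counts were 1409, 537 and 1325. In trained muscle the slow-fibre sum ran from 341 to 997 CPM in vehicle and from 835 to 1190 CPM in knockout-labelled samples, and the only marker called was myoglobin (Mb), which rose by 0.96 (SE 0.25, edgeR adjusted p = 0.0439). Of the 48 markers, 13 had an unadjusted p under 0.05 there, DESeq2 called 5 and limma voom with sample weights called 15. In trained muscle the same counts over all 14359 tested genes were 2467, 907 and 4093. The 7 macrophage markers had a median log2 change of -0.79 with none called. They summed to between 158 and 419 CPM in vehicle-trained and between 52.0 and 328 CPM in knockout-labelled trained samples. Vehicle-trained library 2 had the 419 CPM, and without it the vehicle-trained range ended at 361 CPM. Blood markers summed to between 552 and 2047 CPM in vehicle-trained and between 419 and 3152 CPM in knockout-labelled trained samples. Adipocyte markers summed to between 146 CPM (library 2) and 688 CPM and between 290 and 489 CPM in these groups. The ranges overlapped for both lists. The part of these markers in the results was not tested.

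**Figure D1:**
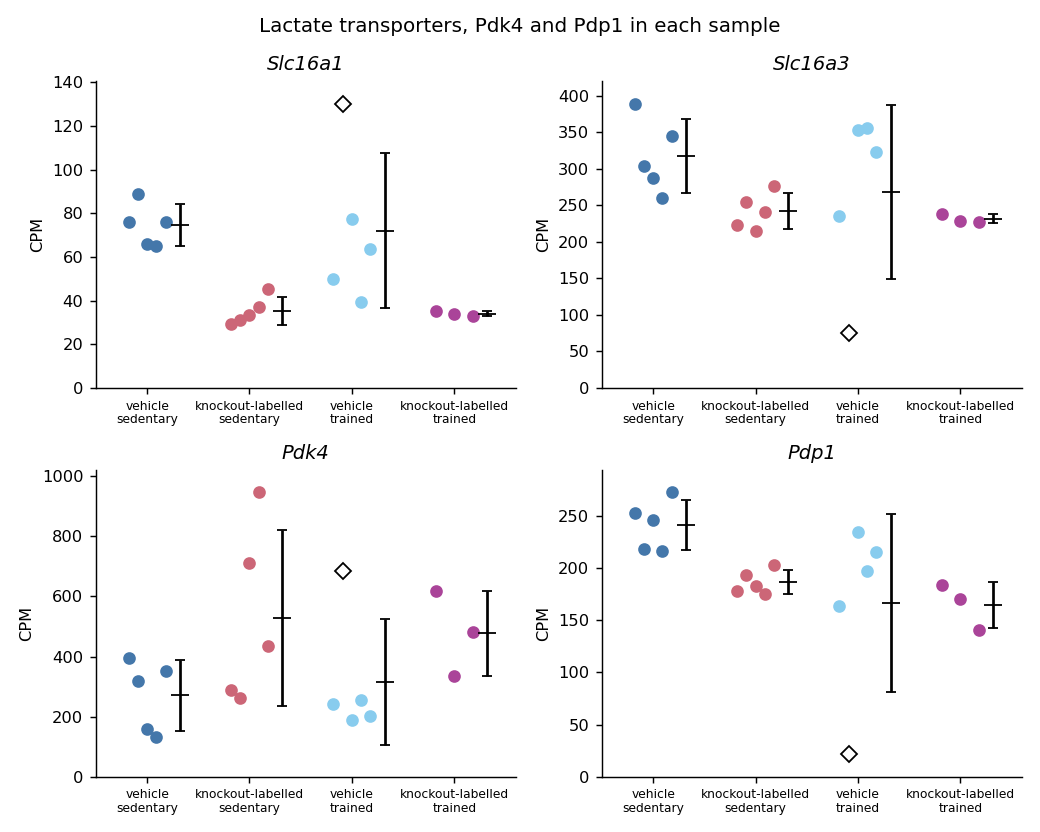
Level of Slc16a1, Slc16a3, Pdk4 and Pdp1 in each sample, in CPM on linear axes that start at 0, by group. Points are samples (a near-identical library pair is 1 point at its mean), the open diamond is vehicle-trained library 2, and the black mark with whiskers is the mean ± SD (n = 5, 5, 5 and 3). The knockout-labelled samples of Slc16a1 lie below all vehicle samples of the same exercise state, whereas those of Pdk4 are spread over the widest range, from 262 to 946 CPM in sedentary muscle.

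Among the kinases no gene passed the test, and Pdk4 had the widest spread in CPM. Pdk4 had 395, 317, 158, 130.4 and 353 CPM in vehicle sedentary libraries and 289, 262, 713, 946 and 434 CPM in those labelled knockout sedentary. The means differed, 271 ± 119 (SD, n = 5) against 529 ± 294 CPM (SD, n = 5), but the ranges overlapped. The log2 change of 0.96 (SE 0.42) had an unadjusted p of 0.0355 and an adjusted p of 0.434 by edgeR. In trained muscle the vehicle libraries had 243, 686, 189, 255 and 203 CPM, and library 2 was more than 2-fold above each of the others. Those labelled knockout trained had 628, 335, 483, 606 and 479 CPM, all above the other 4 vehicle libraries. The trained change of 0.59 (SE 0.48, edgeR adjusted p = 0.557) became 1.10 (SE 0.40, edgeR adjusted p = 0.104) without library 2, still above the threshold. Limma voom with sample weights called Pdk4 in trained muscle, with 1.04 (adjusted p = 0.0348).

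Pdk2, a kinase isoform found in most tissues, had the highest mean level per length of the kinases in vehicle sedentary muscle. Its vehicle sedentary levels were 448, 445, 402, 371 and 449.5 CPM, and 351, 403, 363, 426 and 417 CPM in the libraries labelled knockout sedentary. These overlapped, with a change of -0.12 (SE 0.10, edgeR adjusted p = 0.912). Vehicle-trained libraries had 344, 317, 426, 339 and 379 CPM and those labelled knockout trained had 438, 432, 495, 433 and 525 CPM. The trained groups did not overlap, but the change of 0.34 (SE 0.12) had an edgeR adjusted p of 0.138. Pdk2 passed in trained muscle in 4 alternatives: DESeq2, limma voom with sample weights, the 20 libraries as separate samples, and the replicate block.

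Pdk1, the kinase linked to hypoxia, had levels between 55.4 and 64.7 CPM in vehicle sedentary and between 46.1 and 57.0 CPM in knockout-labelled sedentary muscle. In trained muscle it lay between 43.8 and 56.1 CPM in vehicle libraries other than library 2, which had 28.1 CPM, and between 52.3 and 60.1 CPM in knockout-labelled samples. Its changes were -0.17 (SE 0.14, edgeR adjusted p = 0.888) and 0.31 (SE 0.16, edgeR adjusted p = 0.332), the latter being 0.18 (SE 0.10, edgeR adjusted p = 0.297) without library 2. Pdk3 was close to the limit of detection, at 0.155 to 1.72 CPM, which is between 2 and 32 estimated counts in a library. Its changes were 0.12 (SE 0.44, edgeR adjusted p = 1.00) and -0.27 (SE 0.50, edgeR adjusted p = 0.821), and the sign of the first depended on single samples. Differences in Pdk3 of the size of these errors, and larger ones too, may have been missed at this depth.

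Pdk2 and Pdk4 made up nearly all of the kinase pool. Of the summed kinase RPKM, Pdk4 made up 33.8% ± 9.19 (SD, n = 5) in vehicle sedentary and 50.4% ± 13.0 (SD, n = 5) in knockout-labelled sedentary samples, with ranges of 22.9% to 43.1% and 35.8% to 65.4%. In vehicle-trained samples it was between 27.5% and 39.1% apart from library 2, at 65.2%, and in those labelled knockout trained between 39.9% and 54.7%. Pdk1 held at most 4.59% and Pdk3 held at most 0.414% of the pool in any sample. These shares overlapped in sedentary muscle and were not tested.

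**Figure D2:**
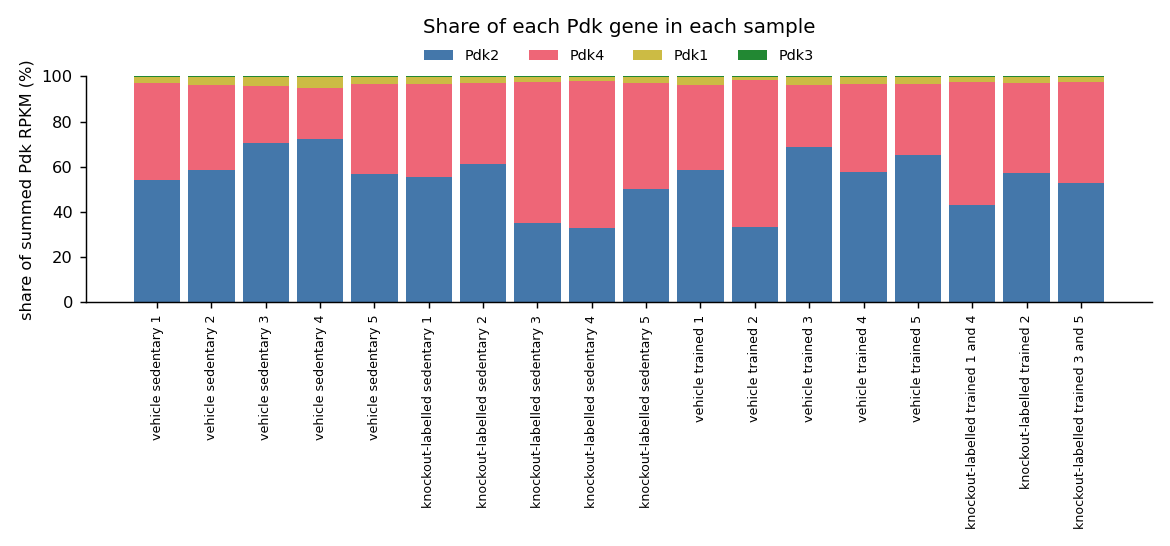
Share of Pdk1, Pdk2, Pdk3 and Pdk4 in the summed RPKM of the Pdk genes, in percent, with 1 stacked bar per sample. Pdk2 and Pdk4 fill nearly the whole bar in every sample, and the Pdk4 share is largest in sample 4 of the knockout-labelled sedentary group (65.4%) and in vehicle-trained library 2 (65.2%).

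The phosphatase pool was almost entirely Pdp1. Pdp1, the calcium-sensitive phosphatase that activates the complex in contracting muscle, had 253, 218, 246, 217 and 273 CPM in vehicle sedentary libraries. The libraries labelled knockout sedentary had 178, 194, 183, 175 and 204 CPM. These groups did not overlap, with means of 241 ± 23.9 (SD, n = 5) and 187 ± 11.7 CPM (SD, n = 5). The change of -0.38 (SE 0.35) nevertheless had an edgeR adjusted p of 0.924. In that fit all 4 groups share 1 estimate of the spread, so trained samples also enter the sedentary test. With only the 2 sedentary groups fitted, the edgeR adjusted p was 0.00861. Without vehicle-trained library 2 the estimate was -0.37 with an SE of 0.10, and Pdp1 fell with an adjusted p of 0.0321 by edgeR. In trained muscle the vehicle libraries had 164, 22.0, 235, 197 and 216 CPM and the knockout-labelled ones 192, 171, 141, 175 and 141 CPM, which overlap. Library 2 lay 9.22-fold below the average of the 4 others. That change was -0.02 (SE 0.41, edgeR adjusted p = 0.986), or -0.30 (SE 0.12, edgeR adjusted p = 0.1545) without library 2. Limma voom with sample weights called it, with -0.47 (adjusted p = 0.0122).

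Pdp2, the insulin-responsive isoform, ranged from 5.96 to 11.8 CPM over all samples. Its changes were 0.17 (SE 0.17, edgeR adjusted p = 0.937) in sedentary and 0.35 (SE 0.19, edgeR adjusted p = 0.373) in trained muscle. Per length, Pdp1 held between 94.5% and 97.8% of the phosphatase transcripts in 17 samples and 81.0% in vehicle-trained library 2.

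Neither E1 subunit passed the test with all samples. Pdha1, which carries the regulatory phosphorylation sites, had 528, 576, 504, 468 and 563 CPM in vehicle sedentary and 459.8, 432, 446, 531 and 523 CPM in knockout-labelled sedentary libraries. The change was -0.15 (SE 0.13, edgeR adjusted p = 0.920), with overlap. In trained muscle the vehicle values were 460.1, 314, 597, 425 and 498 CPM and the knockout-labelled ones 562, 535, 553, 587 and 559 CPM, a change of 0.27 (SE 0.15, edgeR adjusted p = 0.391). Without vehicle-trained library 2 it was 0.16 (SE 0.12, edgeR adjusted p = 0.450). Exons of Pdha1 overlap those of Map3k15 on the opposite strand in GENCODE M21, and the strandedness of counting is not stated, so its count may include reads of that gene.

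Pdhb, the E1 beta subunit, had 177, 175, 172, 159 and 191 CPM in vehicle sedentary and 170.4, 154, 158, 176 and 173 CPM in knockout-labelled sedentary libraries, a change of -0.08 (SE 0.11, edgeR adjusted p = 0.982). Vehicle-trained libraries had 153, 218, 184, 139.9 and 158 CPM, and those labelled knockout trained had 203, 207, 205, 195 and 218 CPM. Vehicle-trained library 2 lay above every knockout-labelled trained sample, and the other vehicle-trained libraries lay below all of them. The change of 0.26 (SE 0.13) had an edgeR adjusted p of 0.299. Without library 2 it was 0.37 (SE 0.10) and Pdhb rose in the knockout-labelled trained group, with an adjusted p of 0.0205 by edgeR.

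**Figure D3:**
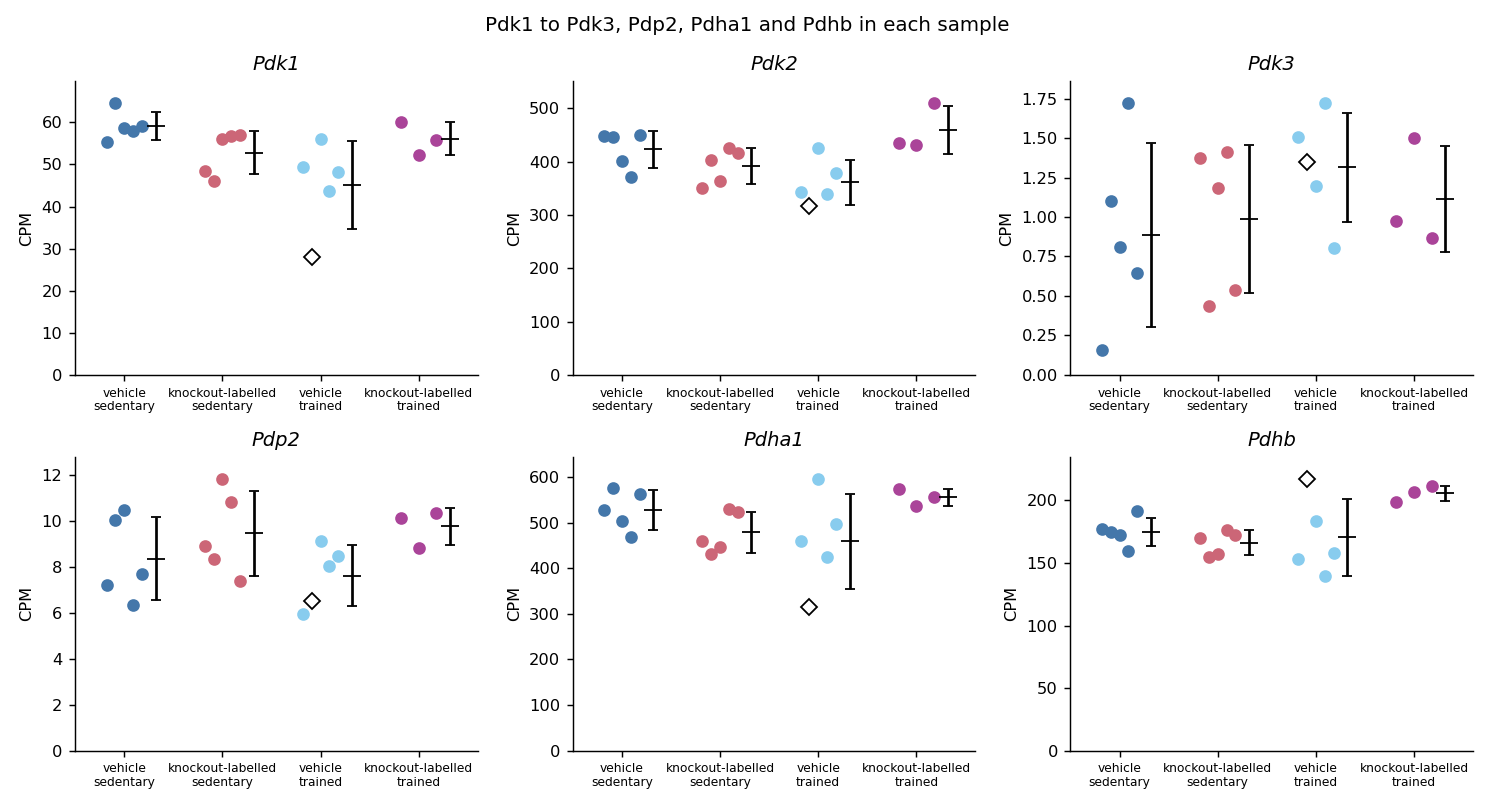
Level of Pdk1, Pdk2, Pdk3, Pdp2, Pdha1 and Pdhb in each sample, in CPM on linear axes that start at 0, by group. Points, the open diamond (vehicle-trained library 2) and the mean ± SD are drawn as for the transporters, with n = 5, 5, 5 and 3. The knockout-labelled trained samples of Pdk2 lie above every vehicle-trained sample, and the Pdk3 axis ends below 2 CPM.

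Counted over the 10 genes, 1 was called in sedentary muscle (Slc16a1, lower), where 2.33% of the 14359 tested genes were called, 1.31% in the lower direction. In trained muscle 1 was called (Slc16a1, lower), where 3.29% of tested genes were called and 1.30% were lower. The median log2 change of the 10 was -0.13 in sedentary muscle, against 0.01 for all tested genes, and 0.26 in trained muscle, against -0.03. Groups did not overlap for 2 of the 10 genes in sedentary muscle (Pdp1 and Slc16a1), against 8.68% of tested genes (4.59% lower), and for 2 in trained muscle (Slc16a1 lower, Pdk2 higher), against 8.96% (3.65% lower and 5.31% higher). Without vehicle-trained library 2 the calls were 2 in each state, Slc16a1 and Pdp1 in sedentary muscle (lower, background 6.98% in all and 3.84% lower) and Slc16a1 (lower) and Pdhb (higher) in trained muscle (background 8.66% in all, 3.65% lower and 5.01% higher). The trained groups then did not overlap for 4 genes, Slc16a1, Pdk2, Pdk4 and Pdhb, against 15.9% of tested genes. Limma voom with sample weights called 2 of the 10 in sedentary muscle (Slc16a1 and Slc16a3), where it called 9.23% of all tested genes. In trained muscle it called 6 (Slc16a1, Slc16a3 and Pdp1 lower, Pdk2, Pdk4 and Pdhb higher), where it called 28.5%. These are counts over few genes and describe these genes alone.

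**Figure D4:**
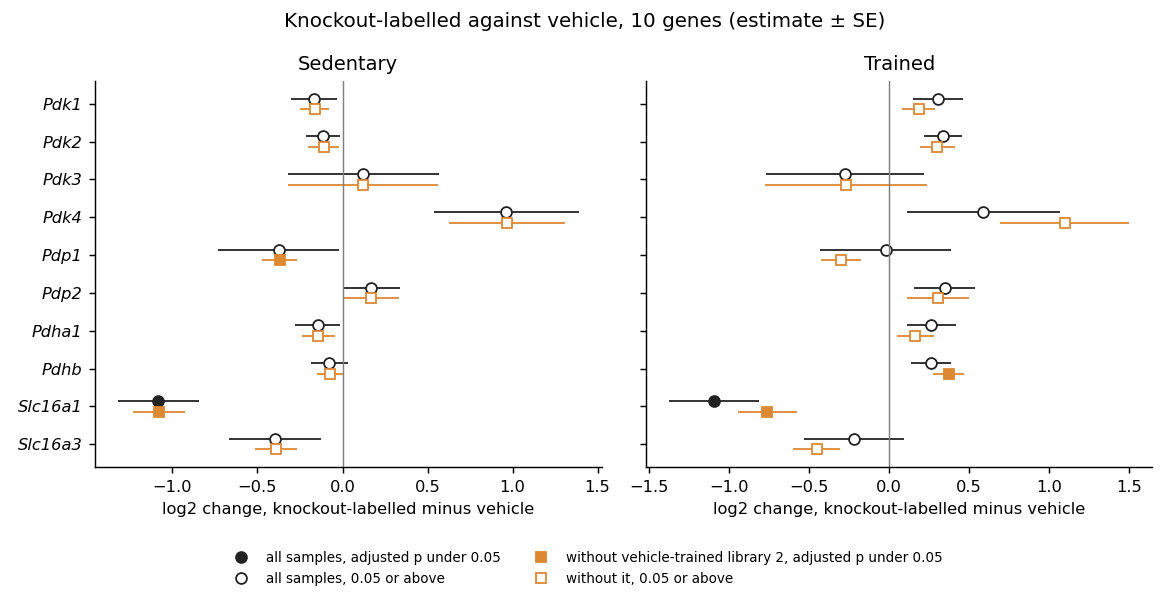
Log2 change of each of the 10 genes between the knockout-labelled and vehicle groups, with its SE, in sedentary (left) and trained (right) muscle. Circles are fits with all samples, squares are fits without vehicle-trained library 2, and filled symbols have an adjusted p under 0.05. Slc16a1 is filled in both panels, while Pdp1 (left) and Pdhb (right) are filled only as squares.

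Training called none of the 10 genes by edgeR in either treatment, where 0.00% of tested genes were called. In vehicle muscle DESeq2 and limma voom with sample weights called 0 of the 10, against 15 and 1 of all tested genes. Unadjusted p values under 0.05 were found there for 2 of the 10, against 2186 of all tested genes. These were Pdk1, with a change of -0.40 (SE 0.14, edgeR adjusted p = 0.272), and Pdk2, with -0.23 (SE 0.10, edgeR adjusted p = 0.304). Without library 2 the changes were -0.26 (SE 0.09, edgeR adjusted p = 0.3575) for Pdk1 and -0.19 (SE 0.10, edgeR adjusted p = 0.4135) for Pdk2, and that of Slc16a1 went from -0.05 (SE 0.23, edgeR adjusted p = 0.925) to -0.37 (SE 0.16, edgeR adjusted p = 0.365). Pdk4 turned from 0.22 (SE 0.42, edgeR adjusted p = 0.798) to -0.28 (SE 0.36, edgeR adjusted p = 0.738). The changes of Pdp1, Pdp2, Pdha1, Pdhb and Slc16a3 were -0.54, -0.14, -0.21, -0.04 and -0.25 with library 2 and -0.25, -0.08, -0.09, -0.14 and -0.0014 without it. The vehicle groups overlapped for all 10, against 1.87% of tested genes that did not overlap (3.36% without library 2, where again all 10 overlapped). In knockout-labelled muscle DESeq2 called 0 of the 10, against 198 of all tested genes. Limma voom with sample weights called 3, where it called 27.2% of all tested genes. An unadjusted p under 0.05 was found there for 1 of the 10, against 1394 of all genes. That gene was Pdhb, with a change of 0.30 (SE 0.13, edgeR adjusted p = 0.440). For 3 genes, Pdk2, Pdha1 and Pdhb, the knockout-labelled trained samples lay above all knockout-labelled sedentary ones. Of all tested genes, 8.64% did not overlap between these groups, and 4.67% did so in the higher direction. Without vehicle-trained library 2, 0 of the 10 were called by edgeR in knockout-labelled muscle, where 0.843% of tested genes were called. In that fit 2 of the 10 had an unadjusted p under 0.05, against 2516 of all tested genes.

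The test of whether training acted differently by treatment called none of the 10 genes with edgeR, where 0.00% of tested genes were called. DESeq2 called 0 of the 10 and 26 of all tested genes. Limma voom with sample weights called 3, where it called 8.43% of all tested genes. Unadjusted p values under 0.05 were found for 2 of the 10 and for 1076 of all tested genes. The 2 were Pdk1, with a difference of 0.47 (SE 0.21, edgeR adjusted p = 0.661), and Pdk2, with 0.45 (SE 0.16, edgeR adjusted p = 0.616). The training change of Pdk1 in knockout-labelled muscle was 0.08 (SE 0.16, edgeR adjusted p = 0.979) and that of Pdk2 was 0.22 (SE 0.12, edgeR adjusted p = 0.5995). Without vehicle-trained library 2 the interaction called 0 of the 10, and 3 had an unadjusted p under 0.05, against 1643 of all tested genes. The differences were then 0.35 (SE 0.13, edgeR adjusted p = 0.329) for Pdk1, 0.41 (SE 0.14, edgeR adjusted p = 0.290) for Pdk2 and 0.44 (SE 0.12, edgeR adjusted p = 0.242) for Pdhb.

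Compared per length, Pdha1 (141 RPKM) and Pdk2 (134 RPKM) had the highest mean levels of the 10 genes in vehicle sedentary muscle, and their ranges overlapped. Pdk4 (77.1 RPKM), Slc16a3 (59.6 RPKM), Pdp1 (53.6 RPKM) and Pdhb (45.3 RPKM) followed, each overlapping the next. Slc16a1 (16.8 RPKM), Pdk1 (7.61 RPKM), Pdp2 (1.47 RPKM) and Pdk3 (0.346 RPKM) came last, and none of these overlapped its neighbours. In the knockout-labelled sedentary group Pdk4 had the highest mean (151 RPKM), overlapping Pdha1 and Pdk2. Slc16a1 there had 7.97 RPKM and overlapped Pdk1 at 6.79 RPKM, a pair that was apart in vehicle sedentary muscle. The order at the lower end was the same in all 4 groups, with Pdp2 and then Pdk3 last.

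Across the 18 samples the levels of some of the 10 genes ran in parallel, which is given as a description because the samples share groups and library 2. Spearman's rho was 0.86 between Pdk2 and Pdha1 and 0.85 between Pdp1 and Slc16a3. Pdk2 and Pdhb had a rho of 0.58, or 0.88 over the 17 samples without vehicle-trained library 2. The tested genes outside the 10 with the pattern most like that of Slc16a1 were 3425401B19Rik (rho 0.95), Cep120 (rho 0.94), a centriole protein gene, and Mvd (rho 0.94), an enzyme of sterol synthesis. Those most like Pdk4 were Irf2bp2 (rho 0.88), Eif2b2 (rho 0.86) and Mlycd (rho 0.85), which encodes malonyl-CoA decarboxylase. Each of these 6 had a rho within 0.02 of its value when library 2 was left out.

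The rest of the pathway was read from 7 lists of 61 genes, all of them tested. In sedentary muscle none rose and 2 fell in the knockout-labelled group, both from the 8 genes of the complex and of pyruvate entry, against 2.33% called of all tested genes. Mpc1, a subunit of the mitochondrial pyruvate carrier, had 249, 243, 278, 299.6 and 241 CPM in vehicle and 179, 156, 192, 165 and 141 CPM in knockout-labelled libraries, with no overlap, and fell by 0.66 (SE 0.12, edgeR adjusted p = 0.00455). Pcx, pyruvate carboxylase, which feeds pyruvate into oxaloacetate, went from 58.1 ± 7.63 to 37.6 ± 7.08 CPM (SD, n = 5 each) and fell by 0.63 (SE 0.15, edgeR adjusted p = 0.0243). The call of Pcx was lost in 6 of 25 alternatives, when vehicle sedentary library 1, 2 or 5 or knockout-labelled sedentary library 1, 2 or 3 was left out, with edgeR adjusted p values up to 0.0855, whereas Mpc1 kept its call in all 25. The second carrier subunit Mpc2 did not pass, with -0.45 (SE 0.18, edgeR adjusted p = 0.340). The other core subunits did not pass either: Dlat (E2) had a log2 change of -0.17 (SE 0.20, edgeR adjusted p = 0.967), Dld (E3) one of 0.07 (SE 0.12, edgeR adjusted p = 0.990) and Pdhx (the E3-binding protein) one of 0.08 (SE 0.11, edgeR adjusted p = 0.982).

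In trained muscle 4 of the 61 rose and 2 fell, against 3.29% called of all tested genes. Mpc1 and Pcx were not among them. Mpc1 lay between 280 and 366 CPM in vehicle-trained samples and at 177, 270 and 223 CPM in knockout-labelled trained samples. Pcx lay between 55.5 and 85.8 CPM (library 2) and between 39.4 and 50.3 CPM in these groups. The trained groups did not overlap for either gene, against 8.96% of tested genes (3.65% lower). Within the 9 lactate-handling genes, Ldhb, the lactate dehydrogenase subunit of oxidative tissue, had 179, 80.4, 151, 69.6 and 93.5 CPM in vehicle and 277, 245, 316, 263 and 315 CPM in knockout-labelled libraries. The groups did not overlap, and Ldhb rose by 1.26 (SE 0.27, edgeR adjusted p = 0.0150). In sedentary muscle its change was 0.04 (SE 0.24, edgeR adjusted p = 1.00), and the difference between the states was 1.21 (SE 0.36, edgeR adjusted p = 0.604), which did not pass. Ldha, the subunit of glycolytic muscle, did not pass, with -0.27 (SE 0.21, edgeR adjusted p = 0.882) and 0.18 (SE 0.24, edgeR adjusted p = 0.744), the latter being -0.02 (edgeR adjusted p = 0.958) without vehicle-trained library 2. Nor did Bsg, the chaperone that carries both MCT proteins to the membrane, with -0.08 (SE 0.10, edgeR adjusted p = 0.969) and 0.18 (SE 0.11, edgeR adjusted p = 0.409).

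The other genes that rose in trained muscle were 3 of the 12 fuel-switch genes often read beside Pdk4. Plin5, a lipid droplet coat protein, went from 9.98 ± 3.13 (SD, n = 5) to 34.0 ± 5.57 CPM (SD, n = 3), a change of 1.76 (SE 0.24, edgeR adjusted p = 0.000354). Fabp3, a fatty acid carrier, rose by 1.13 (SE 0.27, edgeR adjusted p = 0.0250) and Acot2, a mitochondrial acyl-CoA thioesterase, by 0.82 (SE 0.19, edgeR adjusted p = 0.0253). Fitting only the 2 trained groups ended the calls of Ldhb (edgeR adjusted p = 0.249), Fabp3 (0.362), Acot2 (0.135) and Plin5 (0.0513). Leaving out the knockout-labelled trained pair 3 and 5 ended those of Ldhb, Fabp3 and Acot2 (edgeR adjusted p = 0.0946, 0.154 and 0.145). Fabp3 also lost its call without knockout-labelled trained library 2 or vehicle-trained library 5, and Acot2 without knockout-labelled trained library 2 or vehicle-trained library 4. All 4 kept their calls without vehicle-trained library 2. The median of that list was 0.20, against -0.03 over all tested genes. The slow-fibre sum and Mb given above moved in the same direction in these samples, and their part in these changes was not tested.

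The genes that fell in trained muscle were Hk2, a hexokinase, and Nr3c1, the glucocorticoid receptor. Hk2 had 321, 1857, 517, 470.4 and 439 CPM in vehicle and 249, 202, 231, 255 and 236 CPM in knockout-labelled libraries, and fell by 1.67 (SE 0.43, edgeR adjusted p = 0.0391), or by 0.93 (SE 0.17, edgeR adjusted p = 0.00137) without library 2. Nr3c1 fell by 0.38 (SE 0.10, edgeR adjusted p = 0.0453), from 145 ± 13.6 (SD, n = 5) to 112 ± 2.93 CPM (SD, n = 3). Of 25 alternatives, 13 kept the call of Hk2 and 7 that of Nr3c1, with edgeR adjusted p values up to 0.469 and 0.536 when only the 2 trained groups were fitted. Hk2 also lost its call without vehicle sedentary library 1, 2, 3 or 5, knockout-labelled sedentary library 1, 2, 3 or 4, or any knockout-labelled trained sample. Nr3c1 lost it without a count filter, without any 1 of the 10 sedentary libraries, without vehicle-trained library 3, 4 or 5, and without any knockout-labelled trained sample. With all samples the remaining 11 of the 12 regulators linked to Pdk4 did not pass. The lists of lipoylation genes (5) and of the branched-chain ketoacid dehydrogenase and its kinase and phosphatase (5) had no call in either state with all samples. The calls of these lists without vehicle-trained library 2 are given below. Over all 61 genes, 9 in sedentary and 26 in trained muscle had an unadjusted p under 0.05 by edgeR, against 1409 and 2467 of the 14359 tested genes. DESeq2 called 3 and 9 of the 61, against 537 and 907 of all tested genes, and limma voom with sample weights called 9 and 29, against 1325 and 4093.

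Vehicle-trained library 2 was also extreme in this pathway, with 1857 CPM of Hk2, 404 CPM of Foxo1 and 597 CPM of Ppargc1a. Without it 1 gene rose (Plin5) and 5 fell (Mpc1, Pcx, Foxo1, Ppargc1a and Hk2) in sedentary muscle, against 6.98% called of all tested genes. In trained muscle 9 rose and 4 fell without it, against 8.66%. Mpc1 and Hk2 were lower there, and Mcat, Nfu1, Ldhb, Acot2, Fabp3, Plin5, Bckdha and Bckdk were higher. Of the regulators Esrra, Foxo1 and Nr3c1, 1 was higher and 2 were lower. Training and the interaction called 0 of the 61 with edgeR. Unadjusted p values under 0.05 were found for 16 in vehicle muscle, 8 in knockout-labelled muscle and 8 in the interaction. DESeq2 called 0, 2 and 0 there, and limma voom with sample weights called 0, 21 and 14. Of all 14359 tested genes, 2186, 1394 and 1076 had such unadjusted p values. DESeq2 called 15, 198 and 26 of all tested genes, and limma voom with sample weights called 1, 3902 and 1211.

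**Figure D5:**
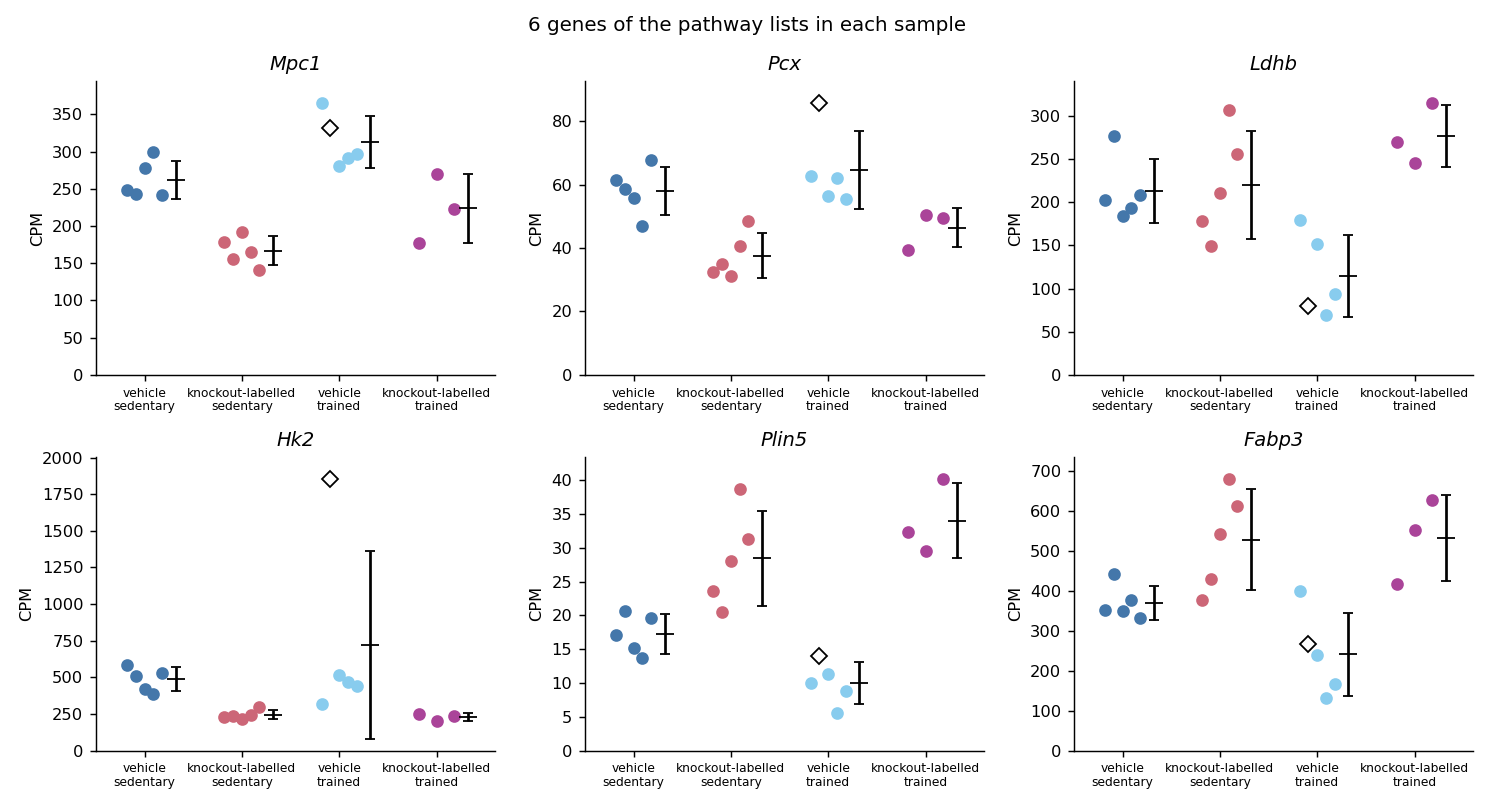
Level of Mpc1, Pcx, Ldhb, Hk2, Plin5 and Fabp3 in each sample, in CPM on linear axes that start at 0, by group. Points are samples, the open diamond is vehicle-trained library 2, and the black mark with whiskers is the mean ± SD (n = 5, 5, 5 and 3). Mpc1 is lower in all knockout-labelled samples than in any vehicle sample of the same exercise state, and Pcx is lower in this way in trained muscle alone. Ldhb and Plin5 are higher in all knockout-labelled trained samples than in any vehicle-trained sample.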

How the data were processed

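Total RNA was isolated with Trizol and RNeasy, and an Illumina kit served for the libraries, per the labels. Partek, STAR 2.7.8a and DESeq2 and the builds mm10 and GRCm39 are named, without role, in the submitters' processing notes. The annotation and strandedness are not given in the sources used here. The deposited table, although named for CPM, holds estimated counts (not whole everywhere, column sums unequal), as the authors made them.

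The estimated counts were rounded. All 190 library pairs were compared, and 2 pairs whose noise at 1000 to 10000 counts was under 1.5 times that at 10 to 100 counts were summed (ratios 1.28 and 0.857; lowest other ratio 2.31). Genes with at least 1 CPM in at least 5 of 20 libraries were fitted with edgeR 4.0.16 (R 4.3.3), quasi-likelihood test, TMM scaling and 4 group means, two-sided, with Benjamini-Hochberg adjustment over 14359 genes and a threshold of 0.05. The test was checked on simulated data. CPM in the text are TMM-scaled, a summed pair being the mean of its libraries. RPKM used merged exon lengths of GENCODE M21. Nothing in the labels says that libraries come from separate animals, so p-values measure the spread between these samples.

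The 10 genes, the lists and the naming rule were chosen with earlier results of these data known. Named were the 10 genes, Arntl, list genes that passed in any comparison, Ldha, Ldhb, Bsg, Mpc1, Mpc2, Dlat, Dld and Pdhx, and the 3 genes most like Pdk4 and each called gene by Spearman's rho. Foxo1, Ppargc1a, Mb, Mcat, Nfu1, Esrra, Bckdha and Bckdk were named after their values were seen. Alternatives were RLE scaling, no count filter, DESeq2 1.42.0, limma voom 3.58.1 with sample weights, 20 separate libraries, a replicate block on those 20 libraries, only the groups compared, and leaving out each sample.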

Additional observations from a re-analysis of the deposited data

Results flagged for a closer look

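Over the 10 genes, 30 groups of 5 samples were examined for 1 sample far from the other 4, and 1 was found, where chance alone would give about 1.5. It was Pdk4 in vehicle-trained library 2, at 686 CPM against 189 to 255 CPM in the other 4 libraries. The gap to the nearest of them was 0.867 of the whole range of the group. The group of 3 samples labelled knockout trained was not examined in this way. This library also stood apart over all genes, and what sets it apart was not tested.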

How the results depend on the processing

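Of the 10 genes, 1 was called by edgeR in each knockout comparison, Slc16a1 in both. In sedentary muscle limma voom with sample weights called 2 (Slc16a3 too), with 1325 of all 14359 genes called. A fit of only the 2 groups called 3 (Slc16a3 and Pdp1 too), with 1177 of all genes called. Leaving out 1 sample gave 0 to 2, with 251 to 1002 of all genes called. In trained muscle DESeq2 (907 of all genes), 20 libraries as separate samples (1225) and the replicate block (980) each called 2 (Slc16a1 and Pdk2). Limma voom with sample weights called 6 (4093 of all 14359 genes), and only the 2 groups compared called 0 (20 of all genes). Leaving out 1 sample gave 0 to 2, with 177 to 1244 of all genes called. Of those fits, 10 lost the trained call of Slc16a1, among them each of the 3 that left out a knockout-labelled trained sample. With limma voom with sample weights, 3 genes were called for training in knockout-labelled muscle and 3 in the interaction. Of all tested genes it called 3902 and 1211 in these comparisons.

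Signs reversed for changes that no edgeR fit with all samples called. Not all of these were near 0: with all samples the interactions of Pdk4 and Pdp1 were -0.375 and 0.35. For the knockout effect, leaving out 1 sample gave Pdk3 in sedentary muscle -0.12 to 0.51 and Pdp1 in trained muscle -0.30 to 0.14, where the replicate block gave 0.0757. For training in vehicle muscle it gave Pdk4 -0.28 to 0.40 (voom -0.11), Pdhb -0.14 to 0.0268 and Slc16a1 -0.37 to 0.11, while Slc16a3 was 0.0352 with voom. For training in knockout-labelled muscle it gave Pdk3 -0.0833 to 0.32, Pdk4 -0.38 to 0.16, Pdp2 -0.0362 to 0.14 and Slc16a1 -0.12 to 0.0470. For the interaction it gave Pdk4 -0.60 to 0.13 (voom 0.0462), Slc16a1 -0.16 to 0.32 and Slc16a3 -0.0626 to 0.30 (voom -0.12). The Slc16a1 interaction was also 0.0149 without a count filter, 0.34 with voom and 0.0533 with the replicate block, and that of Pdp1 was -0.0923 with voom. The cause was not tested.

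Over all genes, 334 and 473 were called in sedentary and trained muscle, 251 to 1002 and 177 to 1244 when 1 sample was left out, and 322 to 1325 and 20 to 4093 under the other alternatives. Training in vehicle muscle called at most 15, training in knockout-labelled muscle at most 3902 and the interaction at most 1211. Replicate numbers did not pair the samples: deviations of same-numbered samples had a mean correlation of 0.0104, over 0.1 in 11 of 30 pairs, against 42 of 120 pairs of different number. The replicate block changed no other call of the 10 genes. Depth limits Pdk3, and the single library that stands apart and the 3 trained knockout-labelled samples limit the trained comparisons.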
